A study of Mus musculus with 7 samples.

Results

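The 6 genes described here, Prlr, Ptgfr, Akr1c18, Stat5a, Stat5b and Oxtr, act in the maintenance and regression of the corpus luteum. They were chosen by name, as 6 of the 21755 protein-coding genes on the autosomes and chromosome X. Earlier results of these data were known when they were chosen. The measurement was chromatin immunoprecipitation followed by sequencing (ChIP-seq) for estrogen receptor beta (ERβ), a nuclear receptor that is the product of Esr2. Ovaries came from female C57BL/6J mice that endogenously express ERβ, between some weeks and a few months of age, and each ChIP replicate held the pooled ovaries of several mice. The labels name no treatment other than cross-linking of the tissue with formaldehyde, and no stage of the estrous cycle. The groups were 3 ERβ ChIP replicates (mouse monoclonal antibody PPZ0506) and 2 inputs, which are sheared chromatin of the same tissue sequenced without the antibody step. The 2 ChIP samples from ovaries with deleted ERβ were not analysed here. All cell types of the ovary were in each library, so luteal cells could not be told apart from granulosa, theca or stromal cells, and with chromatin data only, neither the tissue nor the expression of the genes could be checked against markers.

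The corpus luteum forms from granulosa and theca cells after ovulation and secretes progesterone. In rodents prolactin maintains it through the prolactin receptor (Prlr), which activates the latent transcription factors STAT5A and STAT5B in the cytoplasm. Its regression is started by prostaglandin F2α, the ligand of the receptor encoded by Ptgfr, and is accompanied by the appearance of the enzyme encoded by Akr1c18, which converts progesterone to an inactive metabolite and which prolactin signalling holds down through STAT5. Oxtr encodes the oxytocin receptor. ERβ binds DNA as a dimer, at best at the estrogen response element (ERE), an inverted repeat of a half-site with 3 free bases between the copies, GGTCANNNTGACC.

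A site was defined as a run of 200-bp windows in which the signal was over 4-fold the mean of the 2 inputs in 2 or more ChIP replicates, and input values under the genome mean of 0.368 were raised to it. Signal is the deposited coverage, scaled to a common total in every library. The genome mean was between 0.362 and 0.370 in the 5 libraries, and depth cannot be read from the tracks. The territory of a gene is its body plus 50 kb on each side (mm10, GENCODE vM21).

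The 6 territories held 12 sites, out of 4870 on the autosomes and X. Sites were present at 4 of the 6 genes. At least 1 site was found at 27.5% of all protein-coding genes (5979 of 21755) by the same call. The territories of Stat5b and Stat5a, which lie next to each other on chromosome 11, held 8 different sites, Oxtr held 3 and Akr1c18 held 1, while Prlr and Ptgfr held 0. Over 4-fold signal in all 3 ChIP replicates was reached at 8 sites, and in 2 replicates at 4 sites. The territories were of unequal length, from 116 kb for Oxtr to 272 kb for Prlr. The share of protein-coding genes with a site was 24.1% for territories of 100 to 150 kb and 41.2% for those of 200 to 300 kb, the class of Prlr.

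A pair of intron sites and a pair of exon sites at the Stat5 genes lay at matching positions of the related genes, and the sequences are shown because they carry the main pattern of the locus. Stat5a (11:100859351-100885169, plus strand) and Stat5b (11:100780731-100850724, minus strand) are neighbours whose starts point away from each other, and their products are close paralogs. The first pair lay in intron 5 of both genes (intron 5 of 17 in Stat5a and intron 5 of 18 in Stat5b, by the transcript with the longest coding sequence). Both sequences are printed along the sense strand of their gene, and capitals mark the best ERE match.

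Stat5a intron 5 (site 5), chr11:100870707-100870900, plus strand: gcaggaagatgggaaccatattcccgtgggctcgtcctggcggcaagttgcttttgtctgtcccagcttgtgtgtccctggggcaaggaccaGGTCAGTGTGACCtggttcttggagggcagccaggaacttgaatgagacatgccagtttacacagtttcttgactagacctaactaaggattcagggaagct
Stat5b intron 5 (site 2), chr11:100799447-100799640, minus strand: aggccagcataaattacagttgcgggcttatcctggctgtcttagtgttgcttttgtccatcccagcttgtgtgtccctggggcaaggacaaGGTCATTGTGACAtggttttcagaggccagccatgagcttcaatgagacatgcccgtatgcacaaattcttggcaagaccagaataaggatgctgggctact

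Without gaps, 134 of the 194 bases were identical (69.1%). The ERE began at base 93 of both stretches, with 0 mismatches in the 10 fixed bases in Stat5a and 1 mismatch in Stat5b. The second pair lay in exon 13 of both genes, a coding exon of 207 bp in each. Capitals mark the ERE half-site, since the best ERE match in either window had 3 mismatches.

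Stat5a exon 13 (site 6), chr11:100879591-100879773, plus strand: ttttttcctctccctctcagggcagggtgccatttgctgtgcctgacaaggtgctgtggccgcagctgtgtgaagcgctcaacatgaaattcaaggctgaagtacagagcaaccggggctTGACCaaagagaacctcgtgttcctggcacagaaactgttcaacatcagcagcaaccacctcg
Stat5b exon 13 (site 1), chr11:100790791-100790973, minus strand: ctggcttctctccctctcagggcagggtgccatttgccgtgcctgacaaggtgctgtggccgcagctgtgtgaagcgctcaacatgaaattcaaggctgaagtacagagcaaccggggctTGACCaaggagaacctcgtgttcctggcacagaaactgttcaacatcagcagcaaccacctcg

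Here 176 of 183 bases were identical (96.2%), and the half-site began at base 121 in both. Among all other pairs of the 12 sites, the highest identity found the same way was 43.0%. The tracks were made from uniquely mapped reads. Reads that fit both copies equally would thus be missing from ChIP and input tracks alike. How this affected copies this similar was not tested, so the 2 exon signals are uncertain as separate measurements.

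The strongest site of the 6 genes was the one in intron 5 of Stat5a (site 5, 11:100870701-100870900), 11.4 kb downstream of the Stat5a start. Its signal was 10.6, 11.8 and 13.6 in ChIP replicates 1, 2 and 3 and 1.05 and 0.785 in the inputs. The ChIP values did not overlap the inputs, and the fold over input was 13.1 ± 1.69 (SD, n = 3). The fold was 15.3 with Input replicate 2 as the only input and 11.4 with Input replicate 1. Of all 4870 sites, 87.6% had a mean fold at or below this value. The site also held a STAT match (TTCNNNGAA), the sequence that STAT dimers recognise, 92.5 bp from the site centre. Such a match was found in 6.57% of all sites and in 7.43% of all adjacent 200-bp windows of the genome.

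The matching site in intron 5 of Stat5b (site 2, 11:100799441-100799640) had ChIP signals of 4.96, 4.70 and 7.88, beside inputs of 0.490 and 0.570. The fold was 9.36, 8.86 and 14.9, with a mean of 11.0 ± 3.33 (SD, n = 3), and ChIP replicate 3 stood above the other two. The 2 intron sites differed in signal in every ChIP replicate, with the one in Stat5a higher, and in fold they overlapped across replicates.

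The exon 13 sites were weaker and very even between replicates. In Stat5a exon 13 (site 6, 11:100879591-100879790) the signal was 2.66, 2.80 and 2.68 in ChIP and 0.543 and 0.501 in the inputs, a fold of 5.20 ± 0.146 (SD, n = 3). In Stat5b exon 13 (site 1, 11:100790791-100790990) it was 4.61, 4.34 and 4.61 in ChIP and 1.000 and 0.810 in the inputs, a fold of 4.99 ± 0.169 (SD, n = 3). The same exon stood alone within both genes. Of the 18 exons of the longest coding transcript of Stat5a, 1 was over 4-fold, and of the 19 exons of Stat5b, 1 was over 4-fold. The median exon had a fold of 0.825 in Stat5a and of 0.765 in Stat5b. Over whole exons, exon 13 had a fold of 4.89 in Stat5a and of 4.43 in Stat5b. Coding exons held 2.07% of all 4870 sites.

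**Figure D1:**
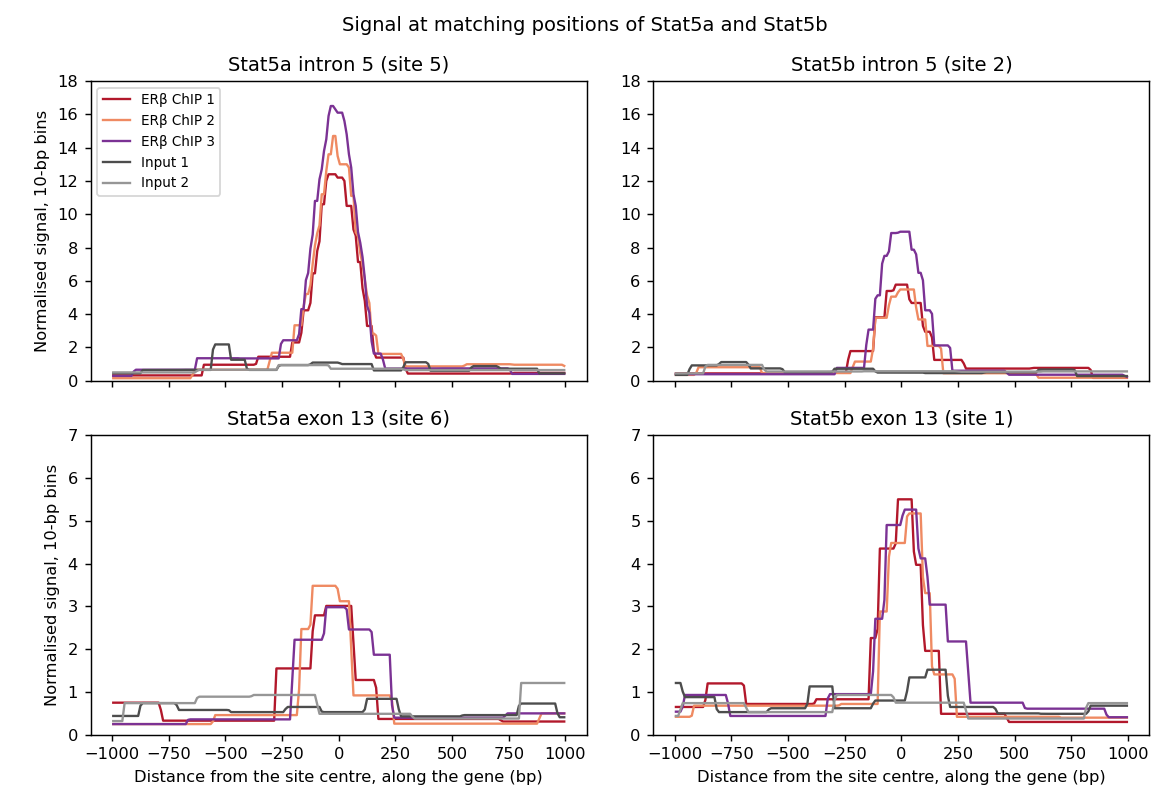
Normalised signal in 10-bp bins (y axis) within 1 kb of the site centre along the sense strand of the gene (x axis), for the sites in intron 5 (upper panels) and exon 13 (lower panels) of Stat5a and Stat5b. Lines are the 3 ERβ ChIP replicates and 2 inputs, and the y axis is shared within a row. All ChIP replicates rose above both inputs at each centre, to at most 16.5 in Stat5a intron 5 and 8.95 in Stat5b intron 5.

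Of the other sites of the locus, 2 lay just past the end of Stat5a, within Stat3. That gene faces Stat5a tail to tail and encodes a related transcription factor. The annotation places both in the Stat3 UTR. At the nearer one (site 7, 11:100886491-100886690), the signal was 5.10, 7.47 and 7.26 in ChIP and 0.540 and 0.520 in the inputs, a fold of 12.5 ± 2.48 (SD, n = 3). The best ERE match there, GGCCACTCTGACA (11:100886567-100886579), had 2 mismatches. At the farther one (site 8, 11:100887771-100887970), the signal was 7.80, 9.33 and 9.40 in ChIP and 0.780 and 0.630 in the inputs, a fold of 12.5 ± 1.28 (SD, n = 3). Its best match, GGGCAGGCTGACC (11:100887885-100887897), had 1 mismatch. Both sites were over 4-fold in all 3 replicates, and they lay 27.2 kb and 28.5 kb downstream of the Stat5a start.

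A site between the 2 genes (site 4, 11:100854321-100854520) lay upstream of both starts, at -4.93 kb from Stat5a and at -3.70 kb from Stat5b. Its signal was 4.28, 3.78 and 2.00 in ChIP and 0.563 and 0.50 in the inputs. The fold of 8.06 and 7.11 in ChIP replicates 1 and 2 fell under the threshold in ChIP replicate 3, where it was 3.76. It is shown with the bases around its ERE, which had 1 mismatch and lay 5.50 bp from the site centre, since it was the only site between the bodies of the 2 genes. Capitals mark the ERE.

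Between Stat5b and Stat5a (site 4), chr11:100854385-100854445, plus strand: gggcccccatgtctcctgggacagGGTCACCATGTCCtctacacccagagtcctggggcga

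The weakest site was in intron 1 of Stat5b (site 3, 11:100819731-100819930), with a signal of 2.73, 3.98 and 3.73 in ChIP and 1.14 and 0.683 in the inputs. Its fold was 3.00, 4.37 and 4.10, so ChIP replicate 1 was under the threshold. With Input replicate 1 as the only input this site was no longer called. Without ChIP replicate 2, a site had to pass in both remaining replicates. Sites 3 and 4 and 2 of the 3 Oxtr sites were then lost, which left 8 of 12. Each lost site had passed in only 2 replicates, ChIP replicate 2 among them, so the loss followed from the rule.

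**Figure D2:**
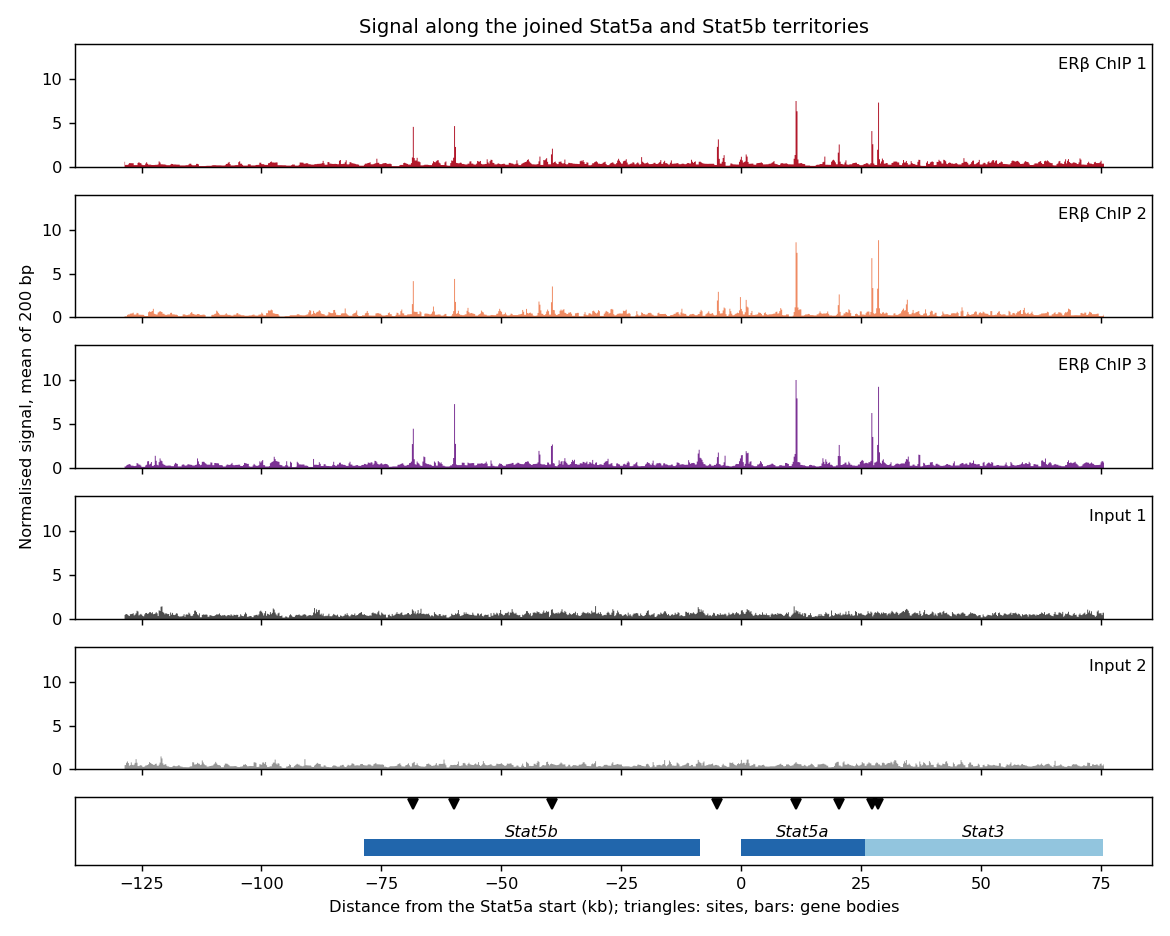
Normalised signal as the mean of 200 bp (y axis, one panel per library) against distance from the Stat5a start (x axis, kb) over the joined territories, with gene bodies as bars and the 8 sites as triangles. Narrow maxima stood at the sites in the ChIP replicates, the highest of them at sites 5 and 8, and the inputs had none of like height.

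The joined Stat5a and Stat5b territories spanned 204 kb and held 39.1 sites per Mb, against 1.90 per Mb over the sequenced autosomes and X. Stretches of that length moved along the genome in steps of 10 kb held 8 or more sites in 107 of 262978 positions (0.0407%), where neighbouring stretches overlap and share their sites. Counted by gene, 32 of the 21755 protein-coding genes (0.147%) had 6 or more sites, the number in the Stat5a territory, and 7 genes (0.0322%) had 8 or more, the number in the Stat5b territory. All 6 sites of Stat5a were also counted for Stat5b, so the genes are not independent of each other. The Stat5 locus and its 2 genes are themselves among the stretches and genes counted here. The genes were chosen with earlier results of these data known, so these shares describe the locus and are not a test. Averaged over the whole Stat5b territory, the signal was 0.468, 0.534 and 0.585 in ChIP and 0.584 and 0.558 in the inputs, so over the whole territory the ChIP and input values overlapped and the excess was limited to narrow regions.

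Upstream of Oxtr (6:112473683-112489943, minus strand), the 3 sites were all intergenic and lay upstream, at -17.9, -33.1 and -36.2 kb from the gene start, which was the nearest protein-coding start of each. They are shown with the bases around their best ERE match in capitals. The half-site was intact on one side in sites 1 and 3, and each match had 2 mismatches.

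Oxtr site 1, chr6:112507760-112507820, plus strand: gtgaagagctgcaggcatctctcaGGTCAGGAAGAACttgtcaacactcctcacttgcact
Oxtr site 2, chr6:112522960-112523020, plus strand: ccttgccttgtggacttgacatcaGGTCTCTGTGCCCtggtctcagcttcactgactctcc
Oxtr site 3, chr6:112526142-112526202, plus strand: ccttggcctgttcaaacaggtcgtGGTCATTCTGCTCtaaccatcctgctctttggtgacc

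The strongest of them was the farthest (site 3, 6:112526081-112526280), with a signal of 2.58, 4.69 and 4.59 in ChIP and 0.719 and 0.507 in the inputs. Its fold of 4.22, 7.65 and 7.49 had a mean of 6.45 ± 1.94 (SD, n = 3) and was over 4 in all 3 replicates. Against the input of the same track-name group (ChIP 1 with Input 1, ChIP 2 and 3 with Input 2), ChIP replicate 1 fell to 3.59, and the others were 9.24 and 9.05.

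The other 2 sites each passed in 2 replicates, and not in the same ones. At site 2 (6:112522901-112523100) the signal was 1.92, 2.80 and 3.56 in ChIP and 0.541 and 0.580 in the inputs, with folds of 3.42, 4.99 and 6.36. At site 1 (6:112507731-112507930) the signal was 2.42 and 2.91 in ChIP replicates 1 and 2, and it was 0.432 in ChIP replicate 3, next to 0.395 and 0.410 in the inputs. The fold there was 6.02, 7.22 and 1.07, so this site was present in 2 libraries and at input level in the third.

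At Akr1c18 (13:4132615-4150654, minus strand), 1 site was called, in intergenic sequence at -22.5 kb from the gene start. The start of its neighbour Akr1c13, a related aldo-keto reductase gene, was nearer, with the site at -18.0 kb from it. The site is printed whole because it was the only one with a FOXO match and because no ERE match with 2 or fewer mismatches was found in it. Capitals mark matches to AGATAA, which GATA factors recognise, and to the FOXO motif TGTTTAC, where a match on the minus strand is printed as its reverse complement.

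Akr1c18 site 1, chr13:4173091-4173290, plus strand: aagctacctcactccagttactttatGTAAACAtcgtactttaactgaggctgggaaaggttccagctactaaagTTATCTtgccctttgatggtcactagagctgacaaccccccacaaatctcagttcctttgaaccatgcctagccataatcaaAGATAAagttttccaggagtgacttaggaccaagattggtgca

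Its signal was 1.75, 2.42 and 3.47 in ChIP and 0.404 and 0.40 in the inputs. The fold of 4.35, 6.02 and 8.63 (mean 6.33 ± 2.16, SD, n = 3) was over 4 in all 3 replicates, with ChIP replicate 1 close to the threshold. Both inputs were near the genome mean there, and with the input set to at least 2 times its genome mean the fold was 3.46 and the site was not called. In the Akr1c18 territory, 3 more regions passed 3-fold but not 4-fold in 2 replicates. Their mean folds were 2.74, 3.12 and 2.84.

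No site was called at Prlr (15:10177238-10349180, plus strand). Its strongest window (15:10211341-10211540), in intron 1 of 9 and 34.2 kb downstream of the start, had a signal of 2.03, 2.11 and 4.19 in ChIP and 0.675 and 0.560 in the inputs. All ChIP values were above both inputs, and the fold was 3.29, 3.41 and 6.78, so only ChIP replicate 3 passed. A threshold of 3-fold would have called it. It is shown because it was the highest signal at the receptor through which prolactin acts, and capitals mark its best ERE match, which had 3 mismatches. The window also held an ERE half-site and a FOXO match (TGTTTAC), which are not marked.

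Prlr intron 1, chr15:10211436-10211496, plus strand: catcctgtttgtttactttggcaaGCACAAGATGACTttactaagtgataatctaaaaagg

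At Ptgfr (3:151796502-151837630, minus strand) the strongest window (3:151831851-151832050), in intron 2 of 2, had a signal of 0.661, 1.22 and 0.560 in ChIP and 0.445 and 0.440 in the inputs. The mean fold was 1.84 ± 0.801 (SD, n = 3), and the highest fold in any window of the territory was 3.05, 2.75 and 3.25 in ChIP replicates 1, 2 and 3. In no window were 2 replicates above 2.11-fold together. Of the 6 genes, Ptgfr was thus the one with the lowest best window, and Prlr and Ptgfr stood on opposite sides of the 3-fold line. Both territories had signal in at least 1 input at every 10-bp bin, with a mean input signal of 0.459 and 0.433 at Prlr and 0.430 and 0.409 at Ptgfr.

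**Figure D3:**
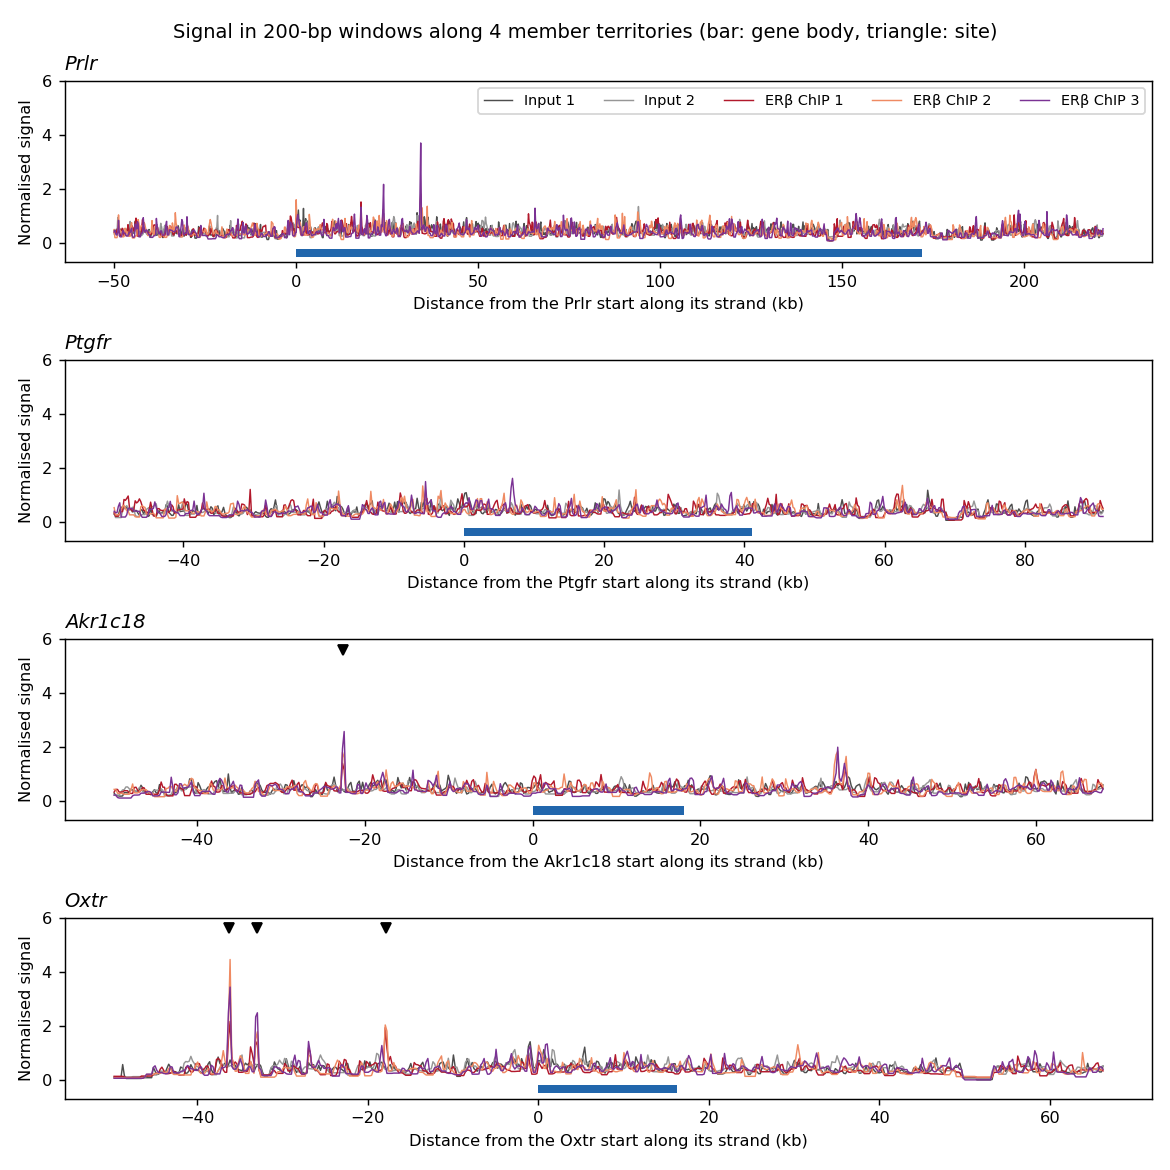
Normalised signal in adjacent 200-bp windows (y axis) against distance from the gene start along its strand (x axis, kb) for Prlr, Ptgfr, Akr1c18 and Oxtr, with 1 line per library, the gene body as a bar and sites as triangles. ChIP lines rose above the inputs upstream of Akr1c18 and Oxtr and in intron 1 of Prlr, where ChIP 3 was the highest, and stayed at or below 1.62 at Ptgfr.

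Just outside the threshold lay 5 regions over 3-fold in 2 replicates, namely the Prlr window, the 3 regions at Akr1c18 and 1 region in intron 1 of Stat5b with a mean fold of 3.22. Just inside lay the Stat5b intron 1 site, with folds of 4.37 and 4.10 in the replicates that passed and a mean fold of 3.82. Oxtr site 1 had a mean fold of 4.77, from 6.02 and 7.22 in the replicates that passed and 1.07 in ChIP replicate 3. The median of the mean folds was 6.32 over the 12 sites and 6.22 over all 4870.

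**Figure D4:**
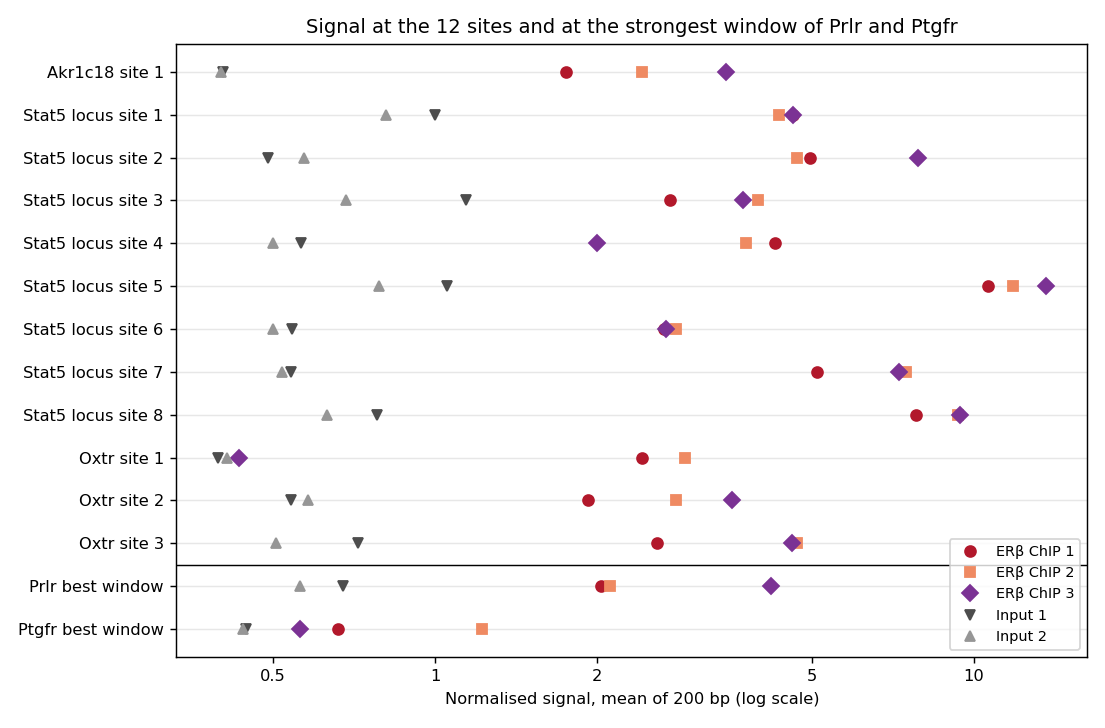
Normalised signal, mean of 200 bp (x axis, log scale), at each of the 12 sites and, under the line, at the strongest window of Prlr and of Ptgfr. Each point is 1 library. All ChIP points lie to the right of both inputs at the 12 sites, with ChIP 3 at 0.432 beside the inputs at Oxtr site 1.

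The sites were chosen on these folds. Folds were also taken in each ChIP replicate at windows that the other 2 replicates alone had called and placed. The inputs were the same, so these folds are not independent of the choice. The sites over 4-fold in each replicate were the same 8 that passed in all 3, so their count restates that one. At 10 sites called and placed by ChIP replicates 2 and 3, the median fold in ChIP replicate 1 was 5.01 (2.87 to 11.5), and 8 of them were over 4-fold, where 74.4% of all sites found that way were. In ChIP replicate 2, the median was 8.15 (4.68 to 14) over 8 sites, all over 4-fold, against 93.5% of all sites. In ChIP replicate 3, it was 7.67 (1.07 to 14.9) over 10 sites, of which 8 were over 4-fold, against 87.6%. ChIP replicate 1 gave the lowest median of the 3, for these sites and for all sites (5.71, against 7.93 and 7.5 in replicates 2 and 3).

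To test the territories without choosing sites first, 1-kb windows of the whole genome were compared between ChIP and input with limma on log2(signal + 0.5). Of 2430679 windows, 2326 (0.0957%) were higher in ChIP at an adjusted p under 0.05 and 65 were lower. Of the 845 windows in the territories, 4 were higher and 0 lower. All 4 lay at Stat5a and Stat5b, over sites 2, 5, 7 and 8. The window over the Stat5a intron 5 site (11:100870001-100871000) rose by 1.68 on the log2 scale (limma, SE 0.23, adjusted p = 2.53e-05). The window over the Stat5b intron 5 site (11:100799001-100800000) rose by 1.23 (limma, SE 0.20, adjusted p = 4.27e-04). The windows over the Stat3 UTR sites rose by 1.22 (limma, SE 0.20, adjusted p = 7.14e-04) and by 1.3 (SE 0.21, adjusted p = 5.42e-04). Site calls and these tests rest on the same libraries. These folds are on a scale that understates changes at low signal and averages a site with its surroundings. With no filter on low signal, 0 of 851 windows were called.

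At the other genes, 0 windows passed. The smallest limma adjusted p of a window higher in ChIP was 0.0947 at Oxtr, 0.103 at Akr1c18, 0.946 at Prlr and 0.962 at Ptgfr. At an unadjusted p under 0.05, 3 of 110 windows at Oxtr, 5 of 118 at Akr1c18, 1 of 272 at Prlr and 0 of 141 at Ptgfr were higher, and 7, 2, 13 and 6 were lower. At Stat5a 6 of 126 windows were higher and 15 lower, and at Stat5b 8 of 170 were higher and 31 lower. Over the genome 46255 windows were higher and 80915 lower at that level. As a median over its windows, the log2 fold change was -0.16 for Stat5b, -0.13 for Stat5a, -0.07 for Oxtr, -0.04 for Prlr, -0.03 for Ptgfr and 0.01 for Akr1c18, and it was -0.01 for the genome. Whether the sites at Oxtr and Akr1c18 differ in strength from those at the Stat5 genes was not tested.

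Signal at the gene starts was taken from 1 kb upstream to 100 bp downstream of 1 annotated start per gene, and alternative starts were not tested. None of the 6 genes had all 3 ChIP values above both inputs there. The values below are this start signal. At Prlr it was 0.513, 0.494 and 0.312 in ChIP and 0.595 and 0.698 in the inputs, so every ChIP value was below both inputs. At Stat5a, the start with the highest ratio (1.17), it was 0.647, 1.04 and 0.934 in ChIP and 0.714 and 0.776 in the inputs, and the groups overlapped, with 2 of the 3 ChIP values above both inputs. The ratio of ChIP to input was 0.680 at Prlr, 0.752 at Oxtr, 0.786 at Stat5b, 0.816 at Ptgfr and 0.981 at Akr1c18. The one-sided exact permutation test over the 5 libraries gave p = 0.30 at Stat5a and from 0.60 to 1.00 at the others, each 1.00 after adjustment over the 6 genes, where 0.1 is the smallest p that 3 against 2 libraries allow. Among all protein-coding genes, with 1 start each, 4.92% had all 3 ChIP values above both inputs, against 0 of these 6. No site of the 12 lay in a promoter, which held 9.49% of all sites, while 5 were intergenic (35.7% of all sites), 3 intronic (48.4%), 2 in coding exons and 2 in UTR (2.05%).

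**Figure D5:**
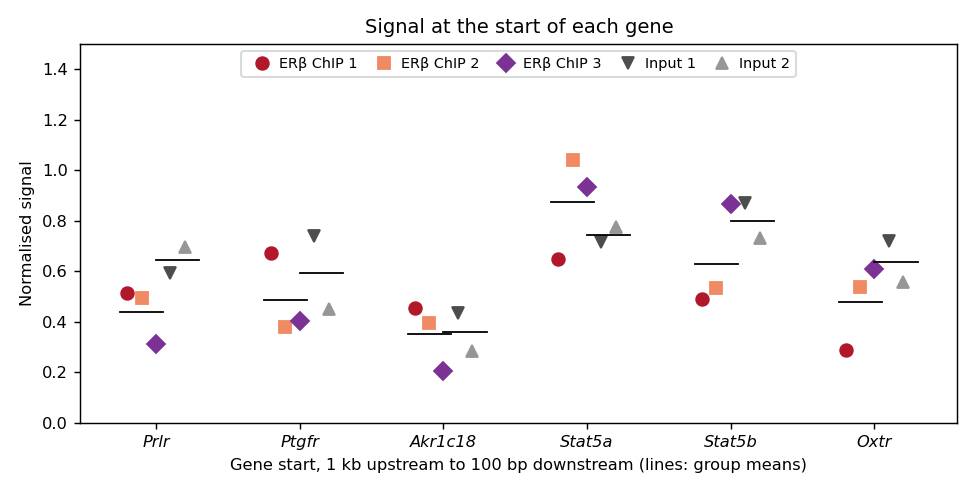
Normalised signal from 1 kb upstream to 100 bp downstream of each gene start (y axis) for the 6 genes (x axis), with 1 point per library and lines at the means of the 3 ChIP replicates and 2 inputs. The groups overlap at Ptgfr, Akr1c18, Stat5a, Stat5b and Oxtr, and at Prlr all ChIP points lie below the inputs.

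Sequence motifs were searched on both strands in the 200 bp of each site. An ERE without mismatch was found at 1 of the 12 sites (Stat5a intron 5), against 6.32% of all sites and 0.0175% of all adjacent 200-bp windows of the genome. With at most 1 mismatch it was found at 4 sites, against 33.0% of all sites and 0.529% of windows. With at most 2 it was found at 8, against 67.9% of all sites and 6.68% of windows. The 4 sites with at most 1 mismatch were all in the Stat5 locus (sites 2, 4, 5 and 8), and 3 of them were among its 4 strongest. A half-site (GGTCA), which every perfect ERE also holds, was present at 11 sites, the exception being Oxtr site 2, against 84.8% of all sites and 26.5% of windows. The letters AGATAA, a motif of GATA factors, were found at 3 sites (Akr1c18 site 1, Stat5 site 7 and Oxtr site 1). Their share was 19.9% of all sites and 13.3% of windows. STAT (TTCNNNGAA) was found at 2 sites (Stat5 sites 4 and 5), against 6.57% of all sites and 7.43% of windows. FOXO (TGTTTAC) was found at 1 site, against 4.76% of all sites and 2.98% of windows. NR5A (TCAAGGTCA), which shares its last bases with the half-site, was found at 0 sites, against 3.49% of all sites and 0.421% of windows. AP-1 (TGANTCA) was also found at 0 sites, against 8.97% of all sites and 5.93% of windows. Apart from the ERE, only exact matches to these letters were counted, so a search that accepts variants of a motif would give higher shares. With 12 sites, these counts are a description of letters in the windows.

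Other genes of the same pathways were counted by lists, with the same definition of a site. In prolactin and JAK-STAT signalling, 5 of 10 genes had a site, among them Stat3 with 5 sites, all shared with Stat5a and Stat5b. In the supply of progesterone, 5 of 7 had a site, and in luteal regression and cell death, 6 of 16. Among genes of prostaglandin synthesis, transport, breakdown and receptors, 3 of 17 had a site, and in the oxytocin and vasopressin system, 1 of 6. Of 8 Akr1c genes, 3 had a site, among them Akr1c13, whose only site was the one counted for Akr1c18. Over all lists it was 23 of 64 genes, beside 27.5% of protein-coding genes, and 2 of the 23 had only sites of the 6 genes described here.

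The strongest best sites among these genes were those of Akr1cl, a member of the aldo-keto reductase family on chromosome 1, with a mean fold of 36.2 ± 5.63 (SD, n = 3), and of Hsd3b1, which encodes the enzyme that makes progesterone from pregnenolone, with 26.0 ± 3.78 at a site in intron 1 of its neighbour Hao2. Bcl2l1, which encodes a survival factor of the BCL2 family, followed with 22.4 ± 2.57. Akr1c14, in the same cluster as Akr1c18, had 14 ± 3.05, and Scarb1, the receptor for high-density lipoprotein that supplies cholesterol, had 13.6 ± 1.71. The mean fold of the strongest site near Akr1c18 was thus lower than that of the strongest sites near Akr1c14 and Akr1cl.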

How the data were processed

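ERβ ChIP-seq of mouse ovary was analysed in 5 libraries (3 ChIP, 2 input), with groups taken from the titles of the samples. In the stated methods the authors aligned reads with STAR, splicing switched off, to GRCm38 (mm10), kept uniquely mapped reads and used HOMER. Versions are not given in the sources used here. The deposited values are signal (coverage) tracks, 1 per library, normalised by the authors to a common total. Depth and duplicate handling cannot be read from them, so no counting interval was computed and the replicates alone set the precision. Replicates are separate pools of ovaries. Track names place ChIP 1 with Input 1, and ChIP 2, ChIP 3 and Input 2 together, so folds within these groups were also computed, an alternative chosen after seeing the data.

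Signal was averaged in 200-bp windows at steps of 10 bp with Python 3.11.15 and numpy 2.4.6. The fold is ChIP over the mean of both inputs, with the inputs set to at least their genome mean over sequenced bases of the autosomes and X. Runs of windows over 4-fold in 2 or more ChIP libraries formed 1 site, placed at its window of highest mean fold. Adjacent 1-kb windows, except those averaging under 0.1, were tested with limma 3.58.1 in R 4.3.3 (lmFit, eBayes with trend) and Benjamini-Hochberg adjustment. Tag counts, on which the study's own calls rest, are not in the tracks. Gene starts were compared with exact permutation tests. Sequences are GRCm38.p6 from RefSeq, and annotation is GENCODE vM21. The site caller and limma steps were tested on simulated data. Genes named beyond the 6 were the 5 with the highest fold over all lists and genes whose body or start lies at a described site. The exon-by-exon folds, the comparison of site sequences and the folds at windows placed by the other replicates were added after the site values were seen. The 6 genes and the gene lists were chosen with earlier results of these data known.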

Additional observations from a re-analysis of the deposited data

How the results depend on the processing

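Of 129 recomputed values, 110 kept their direction and stayed within 1.5 times the count, or within 1 SD of the fold, reported above. These totals count some site and fold values under 2 names. Input 1 alone is the same setting as leaving out Input 2, and Input 2 alone the same as leaving out Input 1. Requiring 8-fold left 4 sites at 2 genes (Stat5a and Stat5b), and windows of 2 times the length left 7 sites. With 3-fold or with 100 kb of flank there were 17 sites at 5 genes, Prlr among them. With territories of the gene body alone, 5 sites at 2 genes remained, and with 10 kb of flank, 2 genes. With the input floor doubled, the Akr1c18 fold was 3.46, and with Input 2 alone the Stat5a fold was 15.3. Windows called by limma were 2 for gene bodies alone, 7 with 100 kb of flank, and 0 with no filter on low signal, a setting that also cut the genome count from 2326 to 523. With 1 library left out at a time, there were 8 to 13 sites at 4 genes, best folds of 5.18 to 7.33 (Akr1c18), 11.4 to 15.3 (Stat5a and Stat5b) and 5.50 to 7.80 (Oxtr), 4 to 6 limma windows in the territories and, over the genome, 1009 (without Input 2), 1261 (without ChIP 2) and 1365 (without Input 1) to 2541. Sites lost were Stat5 sites 3 and 4 and Oxtr sites 1 and 2 without ChIP 2, Stat5 site 4 and Oxtr site 1 without ChIP 1, Stat5 site 3 and Oxtr site 2 without ChIP 3, and Stat5 site 3 without Input 2. With a ChIP library left out, a site had to pass in both that remained. A site over 4-fold in only 2 libraries was thus bound to be lost without either of them. The start ratio reversed above 1 at Akr1c18 (1.25 for 200 bp on each side of the start, and 0.809 to 1.25 with libraries left out, including 1.18 without ChIP 3 and 1.25 without Input 1), at Oxtr (1.23 for 200 bp on each side, 0.649 to 0.900 with libraries left out) and at Ptgfr (0.656 to 1.08). It ranged from 0.623 to 0.779 at Prlr, 1.06 to 1.32 at Stat5a and 0.640 to 0.873 at Stat5b. The causes were not tested.

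ChIP 1 and 2 share numbers with Input 1 and 2, but the labels do not say that a number marks a shared pool. Across 1-kb windows, the difference of ChIP 1 and 2 correlated with that of Input 1 and 2 at r = 0.0149. A shared pool need not leave a common difference in such windows, so this value cannot tell whether a number marks a shared pool. With the replicate block, 12 sites at 4 genes were called, limma gave 7 higher and 4 lower windows in the territories and 3428 higher and 3204 lower over the genome, and the Akr1c18 start ratio was 1.21. Within track-name groups there were 13 sites at 4 genes, and with a signal of at least 2 there were 12. A signal height at which the inputs, called against each other, gave at most 0.001 as many windows as the ChIP libraries could not be found (lowest share 0.00506), so that alternative gave no value. Depth is unknown from the tracks, so a missing site at Prlr or Ptgfr says only that none was detectable by this definition.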
